A study of Mus musculus with 6 samples.

Results

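The genes described here are 38 antiviral effectors of the type I interferon response, together with the paired subunits of the interferon receptor. They were chosen by symbol and leave out the Gbp and Irg GTPase families, the interferon regulatory factors and the STAT proteins. All 38 were among the 24062 genes of the count table, Ifit3b under its older symbol I830012O16Rik, and 34 of them had enough reads to be tested. No measured value entered the rule, but the choice was made with earlier results of these data known.

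RNA was sequenced from a mouse model of acute myeloid leukemia. Lineage-negative hematopoietic cells, a population depleted of mature blood cells, were transduced by retrovirus with MLL-AF9, a fusion oncogene of this leukemia. The donors were A20+/+ Rosa Cre-ER or A20f/f Rosa Cre-ER mice, so all cultures carried the tamoxifen-activated recombinase, and all of them received 1 µM 4-hydroxytamoxifen for 48 h and grew with IL-6, IL-3 and SCF. Each label, A20 WT and A20 KO, had 3 libraries. The comparison asks what deletion of A20 does to gene expression in these cells; A20 edits ubiquitin chains and so holds back the NF-κB pathway. The labels do not say whether the 3 libraries of a group came from separate cultures or mice, so the spread behind the p-values is that of these libraries and could be technical.

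Type I interferons bind a receptor made of IFNAR1 and IFNAR2, whose kinases JAK1 and TYK2 activate the transcription factor complex ISGF3. This complex binds interferon-stimulated response elements in the promoters of target genes. The products bind, edit, cut or trap viral RNA and proteins, and many of these genes are also expressed at a basal level in hematopoietic cells without infection.

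The libraries held 16.1 to 25.4 M counted reads, and levels are given as CPM, read counts scaled to library size and, by TMM, to library composition, with means ± SD over n = 3 libraries per group. Values of single libraries are in order of replicate number, with the WT-labelled group first. Tnfaip3, which encodes A20, went against the labels: it stood at 7.39, 8.67 and 8.24 CPM under the WT label and 100, 74.1 and 79.1 CPM under the KO label (log2 fold change 3.38, SE 0.17, adjusted p = 4.71e-05). Counts over the whole gene do not measure whether a floxed part was removed, so the groups are named here by their labels only. Xist, the transcript that coats the inactive X chromosome of female cells, was at 564, 2109 and 2090 CPM under the WT label and 0, 4.76 and 4.77 CPM under the KO label, so the sex of the donors and the A20 label cannot be told apart. Replicate 1 stood apart in both groups: Gapdh was at 2645 and 2716 CPM in replicate 1 and between 167 and 254 CPM in the other 4 libraries. The closest pair of libraries was KO-labelled replicates 2 and 3, with a chi-square over genes of 2.42 per degree of freedom, while all other pairs had 26.2 to 402. The 8 markers of hematopoietic and myeloid progenitors did not move together: Kit (mean 353 to 102 CPM), Mpo (200 to 0.427) and Cd34 (613 to 1.63) fell. Elane (257 to 135) did not pass but lay lower in every KO-labelled library than in any WT-labelled one. Ptprc, Spi1 and Csf2rb did not pass either but lay higher in every KO-labelled library than in any WT-labelled one. Cebpa did not pass and overlapped between the groups. The sum of the 8 markers was 2196 to 2563 CPM under the WT label and 1594 to 1691 CPM under the KO label. The 4 megakaryocyte markers, mainly Itga2b, summed to 27.4 to 40.6 against 0.901 to 1.13 CPM. Of 4 markers of plasmacytoid dendritic cells, Siglech and Ly6d had no read, Ccr9 was under 1 CPM, and Tcf4 fell from 51.2, 83.2 and 102 to 12.7, 12.6 and 10.6 CPM. The lists of T and NK, of B and of erythroid markers each summed to under 5 CPM in every library. At these low levels Cd4 was called higher (0, 0.115 and 0 against 4.64, 0.649 and 0.657 CPM, adjusted p = 0.023). Cd79b and Epor were called lower (adjusted p = 0.010 and 0.039). The part of these differences between the groups in the effector levels was not tested.

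Many of these genes carry letters of the interferon response element in their promoters. The core letters of an interferon-stimulated response element, GAAA, any 2 bases and GAAA again, were looked for on both strands from 250 bases before to 50 bases after the RefSeq start site (build GRCm38.p6), together with the looser AAANNGAAA, which every core match also holds. The table held promoters of 31 of the 38 genes, all but Parp9, Parp14, Oas2, Usp18, Rtp4, Mx1 and Mx2. The core letters were in 11 of them (35.5%), against 3.99% of 27025 genes in the same table, and the looser letters in 18 (58.1% against 12.1%). The stretches below are 30 bases upstream of the RefSeq start site, 5′ to 3′ on the gene's strand, with the matched letters in capitals, overlapping matches included. Gene positions given further on are from GENCODE, whose starts can differ. By these, the Uba7 stretch lies inside the gene and the Samd9l stretch reaches its first base. They are a selection from the genes with a match, and others, such as Sp100 and Oas1a, are not shown.
Rsad2 (chr12:26456549-26456578, minus strand): tccaacTTTCATTTTCagaaaacagaaact
Isg15 (chr4:156200873-156200902, minus strand): ccgtagGAAAAGGAAACCGAAACAGAAAat
Ifit1 (chr19:34640779-34640808, plus strand): cttcagTTTCACTTTCcagtctcagtttca
Oas3 (chr5:120777711-120777740, minus strand): ggaggaGAAAACGAAAgtgaagggaggtga
Bst2 (chr8:71537579-71537608, minus strand): ttccagGAAAATGAAACTGAAAggctgcag
Samd9l, looser letters (chr6:3399572-3399601, minus strand): cactaaagagcagaaAAAGAGAAAaaaagc
Uba7, looser letters (chr9:107975534-107975563, plus strand): gtctagTTTCACTTTtggtttcctgaaatc
Rsad2, Ifit1 and Uba7 carry the letters on the opposite strand, where they read TTTC first. The motif was chosen with the expression values known, and a match describes letters, not binding.

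Most of the antiviral effectors did not pass the test between the labels, and those that did were found in both directions. In edgeR's quasi-likelihood test and Benjamini-Hochberg adjustment over 12126 genes, at a threshold of 0.05, 2 of the 34 tested genes were higher in the KO-labelled libraries (5.88%), 7 were lower (20.6%) and 25 did not pass. Over all tested genes 13.7% were higher and 13.7% lower, 27.3% in all, so that the 26.5% called among the effectors was close to the background. The median log2 fold change of the 34 was −0.11, beside −0.04 over all tested genes, and 19 of 34 (55.9%) were below 0, beside 52.8%. The CPM ranges of the groups did not overlap for 13 genes (38.2%, 5 with the KO-labelled libraries above and 8 below), beside 47.6% of all tested genes. Rsad2 and Samd9l were the genes that rose, and Uba7, Parp9, Dtx3l, Ifitm3, Pml, Sp100 and Ifit2 those that fell.

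**Figure D1:**
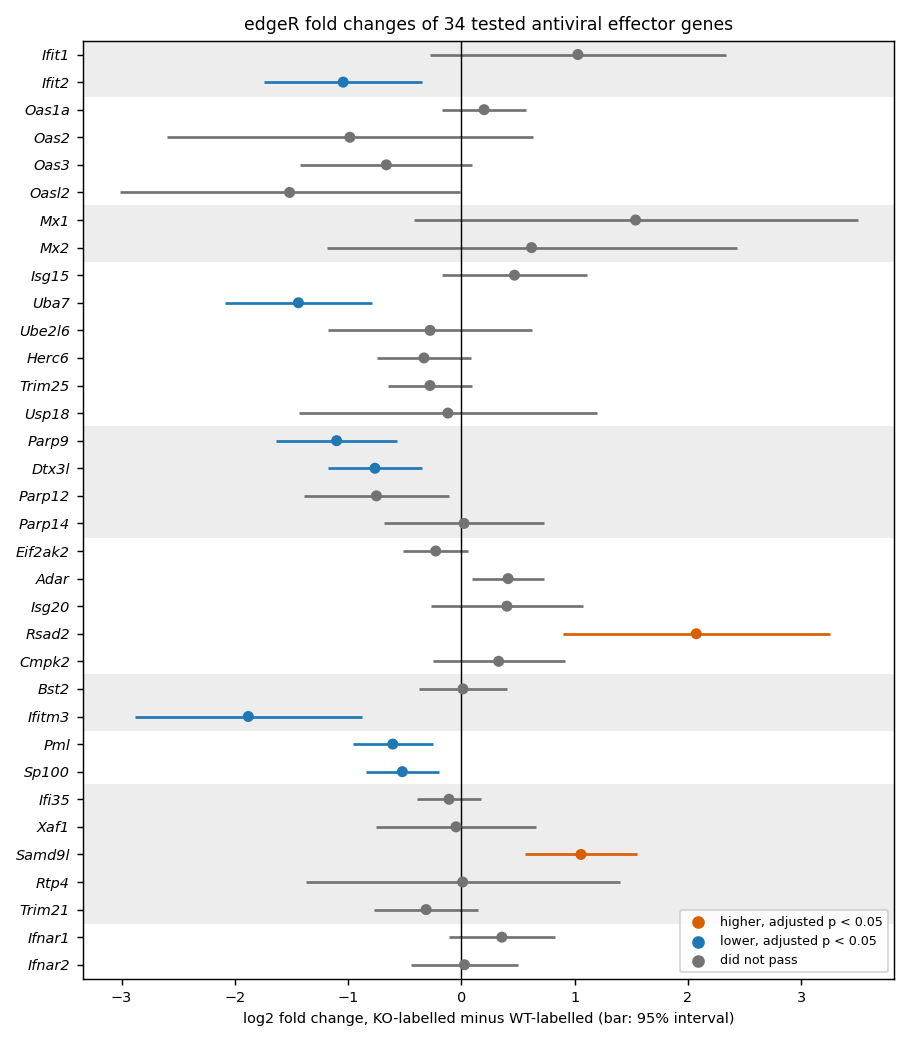
edgeR log2 fold changes, KO-labelled minus WT-labelled, of the 34 tested genes in order of role (grey and white bands); points are estimates, bars 95% intervals, and colour marks the call. The 2 genes called higher lie at 2.07 and 1.05, and the 7 called lower between −1.88 and −0.52.

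Levels can be compared between genes only per length of exon. Over the 6 libraries Ifitm3 was the most abundant, at 257 CPM per kb, followed by Bst2 at 45.1, Ifnar2 at 42.9, Ifnar1 at 37.7, Sp100 at 25.0 and Ifi35 at 24.8 CPM per kb. Several genes often used as signs of an interferon response lay far below: Isg15 at 6.30, Oas2 at 1.46, Rsad2 at 1.25, Usp18 at 1.20, Ifit1 at 0.941 and Mx1 at 0.390 CPM per kb. Oas1a lay between, at 17.8 CPM per kb. Ifit3, Ifit3b, Oasl1 and Ifi44, the 4 genes left out of the test, had at most 14 reads in any library. For comparison, 3 reads in a library correspond to 0.125 to 0.179 CPM.

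**Figure D2:**
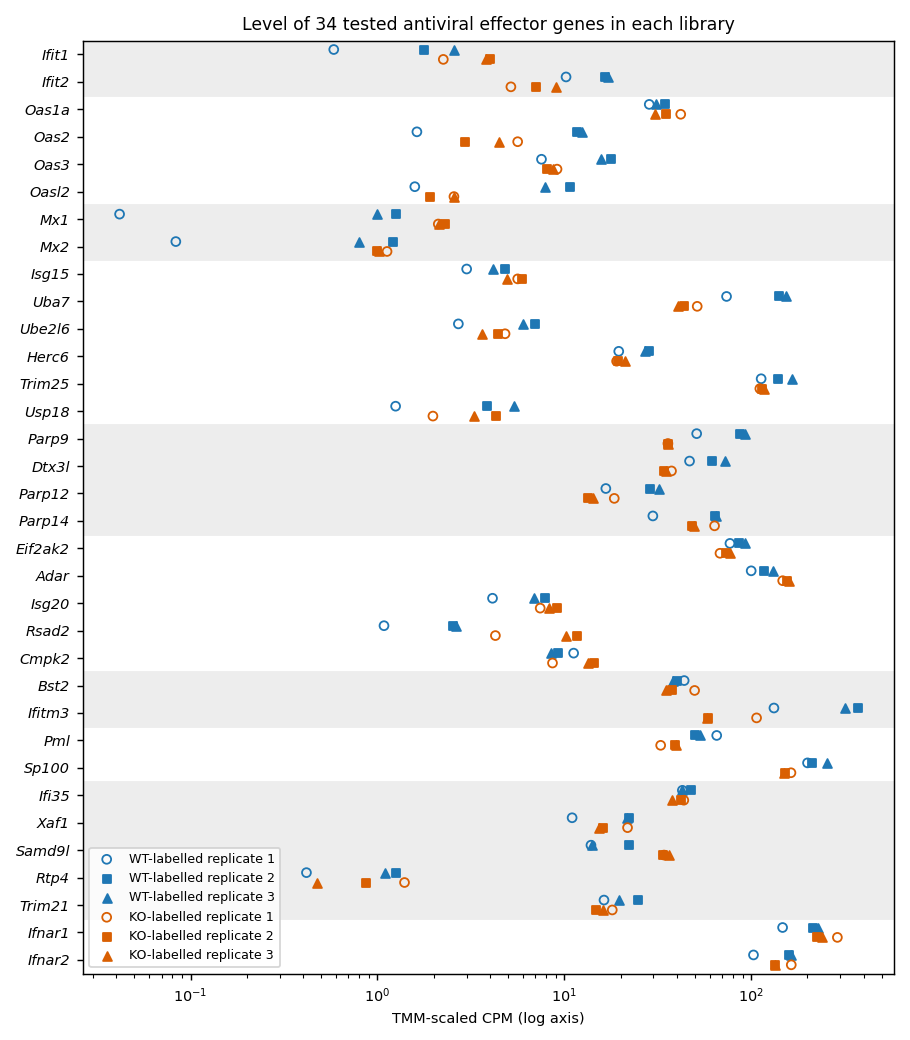
TMM-scaled CPM (log axis) of the 34 tested genes in each of the 6 libraries, in order of role; blue marks WT-labelled and orange KO-labelled libraries, circles replicate 1, squares replicate 2 and triangles replicate 3. For Ifit1, the Oas genes, Mx1, Mx2 and Usp18 the open blue circle of WT-labelled replicate 1 is the lowest of the 3 WT-labelled points.

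The IFIT proteins bind foreign RNA through tetratricopeptide repeats, and their genes lie side by side on chromosome 19. Ifit2, which binds AU-rich RNA, fell. It stood at 10.2, 16.5 and 17.2 CPM under the WT label and 5.18, 7.10 and 9.01 CPM under the KO label, so every KO-labelled library lay below every WT-labelled one. The level was 2.06-fold lower (log2 fold change −1.04, SE 0.29, adjusted p = 0.038), but the call was lost with scaling to library totals (adjusted p = 0.0585) and without any 1 library other than WT-labelled replicate 1 (adjusted p 0.0544 to 0.115). Ifit1, which binds RNA whose cap lacks the methylation of host RNA, had 0.584, 1.78 and 2.58 CPM against 2.25, 3.98 and 3.82 CPM. These ranges overlapped, and the log2 fold change of 1.03 (95% interval −0.28 to 2.34) did not pass (adjusted p = 0.22). Ifit2 and Ifit1 thus had estimates of opposite sign, but a difference between these genes was not tested. Ifit3 had 3, 3 and 5 reads against 8, 14 and 5, and Ifit3b at most 8. These paralogs share 61.8% and 55.3% of their 31-base stretches with transcripts of other genes, mostly with each other, so reads could not be assigned to either with certainty.

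Oligoadenylate synthetases sense duplex RNA and make a messenger that switches on RNase L. None of the 4 tested effectors of this family passed. Oas2 was at 1.63, 11.8 and 12.5 CPM under the WT label and 5.63, 2.94 and 4.48 CPM under the KO label. Oas3 was at 7.55, 17.9 and 15.7 against 9.15, 8.05 and 8.71 CPM, and Oasl2, an OAS-like protein with a ubiquitin-like tail, at 1.59, 10.8 and 7.84 against 2.57, 1.90 and 2.57 CPM. In all 3 genes WT-labelled replicates 2 and 3 were the highest libraries and WT-labelled replicate 1 the lowest, below every KO-labelled library. With all 6 libraries the log2 fold changes were −0.98 for Oas2, −0.66 for Oas3 and −1.52 for Oasl2 (adjusted p = 0.34, 0.17 and 0.12). Without WT-labelled replicate 1 they were −1.48, −0.95 and −1.98 and passed (adjusted p = 0.0062, 0.0032 and 0.0014). Oas1a was even, at 28.5, 34.5 and 30.9 against 42.0, 35.2 and 30.7 CPM (log2 fold change 0.20, 95% interval −0.17 to 0.57), although 68.8% of its 31-base stretches also occur in transcripts of other genes, most of them Oas1g. Oasl1, which restrains translation of IRF7, had at most 4 reads in any library. Outside the chosen effectors, Oas1c of the same family was lower, at 14.7, 20.3 and 16.2 against 11.6, 10.5 and 10.4 CPM, with no overlap. Its log2 fold change was −0.65 (adjusted p = 0.036), while Oas1b and Oas1g did not pass (−0.58 and 0.20, adjusted p = 0.44 and 0.77).

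The Mx proteins are dynamin-like GTPases that block replication of influenza and other viruses, and Mx2 is annotated as a polymorphic pseudogene in the reference mouse genome. Mx1 was at 0.0417 CPM in WT-labelled replicate 1, at 1.26 and 0.993 CPM in its companions and at 2.12, 2.29 and 2.15 CPM under the KO label. The KO-labelled libraries lay above all WT-labelled ones, yet the log2 fold change of 1.54 had a 95% interval from −0.42 to 3.50 and did not pass (adjusted p = 0.22). Mx2 showed the same low value in WT-labelled replicate 1, at 0.0835 CPM against 1.21 and 0.794 CPM, but the KO-labelled libraries, at 1.13, 0.996 and 1.01 CPM, lay within the WT-labelled range. Its log2 fold change was 0.62 (adjusted p = 0.60) with all libraries and 0.00 in replicates 2 and 3 alone.

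ISG15 is a ubiquitin-like protein that is attached to other proteins by the activating enzyme UBA7, the conjugating enzyme UBE2L6 and the ligase HERC6, and removed by USP18. Along this chain the activating enzyme fell and no other tested member passed. Uba7 (chr9:107975505-107984060, plus strand) was at 73.9, 141 and 153 CPM under the WT label and 51.5, 43.5 and 40.6 CPM under the KO label, with no overlap. Its mean was 123 ± 42.7 against 45.2 ± 5.61 CPM, 2.71-fold lower (log2 fold change −1.44, SE 0.28, adjusted p = 0.0090), and this call held without any 1 of the libraries. Isg15 itself was low and had a higher point estimate: 3.00, 4.82 and 4.17 CPM against 5.63, 5.97 and 4.95 CPM, not overlapping but not past the test (log2 fold change 0.47, 95% interval −0.17 to 1.11, adjusted p = 0.25). Ube2l6 (2.71 to 6.95 against 3.64 to 4.82 CPM) and Usp18 (1.25 to 5.36 against 1.98 to 4.33 CPM) overlapped between the groups. Usp18, which also shuts off signalling at IFNAR2, had a log2 fold change of −0.12 with a 95% interval from −1.44 to 1.20. Herc6 and Trim25, the latter a ubiquitin ligase that activates the RNA sensor RIG-I, had log2 fold changes of −0.33 and −0.28 (adjusted p = 0.21 and 0.23). Both passed as lower without WT-labelled replicate 1, at −0.47 and −0.40 (adjusted p = 0.017 and 0.023).

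PARP9 and the ubiquitin ligase DTX3L form a complex that modifies histones and viral proteins, and their genes are neighbours on chromosome 16 with starts that overlap on opposite strands. Both fell. Parp9 (chr16:35938470-35972605, plus strand) was at 51.1, 87.4 and 93.3 CPM under the WT label and 35.9, 36.0 and 36.0 CPM under the KO label, 2.15-fold lower (log2 fold change −1.10, SE 0.23, adjusted p = 0.012). Dtx3l (chr16:35926511-35939151, minus strand) was at 46.8, 61.7 and 72.8 CPM against 37.5, 34.1 and 35.2 CPM, 1.70-fold lower (log2 fold change −0.76, SE 0.18, adjusted p = 0.018). In both genes the KO-labelled libraries were nearly level, and all of them lay below WT-labelled replicate 1, the lowest of its group. Parp9 did not pass when KO-labelled replicate 1 was left out (adjusted p = 0.0526) nor Dtx3l without any 1 library other than WT-labelled replicate 1 (adjusted p 0.0501 to 0.0781). Of the 31-base stretches of Parp9 8.56%, and of those of Dtx3l 9.68%, also occur in transcripts of other genes, most often of the other gene of this pair. The strand setting of the counting is not given in the sources used here. Parp14, a macrodomain ADP-ribosyltransferase in the same stretch of chromosome 16, did not pass: it was at 29.8, 64.0 and 65.0 against 63.7, 48.0 and 49.5 CPM (log2 fold change 0.02, 95% interval −0.69 to 0.73). Parp12, an ADP-ribosyltransferase that restricts RNA viruses, was at 16.7, 28.8 and 32.2 against 18.5, 13.3 and 14.3 CPM (log2 fold change −0.75, adjusted p = 0.082) and passed without WT-labelled replicate 1 (−0.98, adjusted p = 0.0042).

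Among proteins that act on RNA or nucleotides, Rsad2 rose. It encodes viperin, which converts CTP into a chain terminator of viral polymerases. Rsad2 (chr12:26442746-26456452, minus strand) was at 1.09, 2.53 and 2.63 CPM under the WT label and 4.28, 11.6 and 10.3 CPM under the KO label. In both groups replicate 1 was the lowest, and the ranges did not overlap. The mean went from 2.08 ± 0.864 to 8.73 ± 3.91 CPM, 4.21-fold higher (log2 fold change 2.07, SE 0.50, adjusted p = 0.021), and the call was lost without replicate 2 or 3 of either group (adjusted p 0.0524 to 0.0797). Cmpk2, a mitochondrial nucleotide kinase that makes CTP and is the neighbour of Rsad2 on chromosome 12, was at 11.2, 9.24 and 8.49 against 8.65, 14.4 and 13.4 CPM. Its KO-labelled replicate 1 lay within the WT-labelled range and the other KO-labelled libraries above it (log2 fold change 0.33, adjusted p = 0.37). In replicates 2 and 3 alone Cmpk2 was higher (0.63, adjusted p = 0.011).

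Adar, which edits adenosine to inosine in duplex RNA and so keeps the cell's own RNA from being sensed, was at 100, 117 and 131 CPM under the WT label and 148, 156 and 159 CPM under the KO label. The ranges did not overlap, and the log2 fold change of 0.41 (95% interval 0.09 to 0.73) missed the threshold after adjustment (adjusted p = 0.061). It passed without WT-labelled replicate 1 (0.32, adjusted p = 0.041). Of its 31-base stretches 15.4% also occur in transcripts of other genes, mainly Chrnb2, which overlaps it on the opposite strand. Eif2ak2, which encodes the RNA-activated kinase PKR that halts translation, was at 77, 85.7 and 93.0 against 68.1, 73.4 and 76.9 CPM. Its KO-labelled libraries lay just below the WT-labelled ones, but the difference of −0.23 on the log2 scale (95% interval −0.52 to 0.06) did not pass. The exonuclease gene Isg20 ranged from 4.13 to 7.87 against 7.43 to 9.18 CPM and did not pass (log2 fold change 0.40, adjusted p = 0.34).

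The membrane restriction factors BST2, also called tetherin, and IFITM3, which blocks fusion of virus in endosomes, were the most abundant effectors per length of exon. Ifitm3 fell, and Bst2 did not pass. Ifitm3 (chr7:141009586-141010770, minus strand) was at 132, 371 and 320 CPM under the WT label and 107, 58.5 and 57.8 CPM under the KO label. In each replicate number the KO-labelled library was the lower one, but the gap was small in replicate 1 (log2 difference −0.31) and wide in replicates 2 and 3 (−2.56). The mean fell from 274 ± 126 to 74.4 ± 28.2 CPM, 3.68-fold (log2 fold change −1.88, SE 0.43, adjusted p = 0.017). The call was lost without replicate 2 or 3 of either group (adjusted p 0.0592 to 0.0714), and replicates 2 and 3 alone gave −2.59 (adjusted p = 6.5e-06). Of its 31-base stretches 20.5% also occur in transcripts of other genes, most of them Ifitm1. Bst2 was even, at 43.8, 40.0 and 38 against 49.8, 37.9 and 35.1 CPM, with a log2 fold change of 0.01 and a 95% interval from −0.37 to 0.40.

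PML and SP100 are the scaffold and a core component of nuclear bodies that silence incoming viral genomes. Both genes fell by less than 2-fold. Pml (chr9:58218076-58249786, minus strand) was at 65.4, 50.2 and 53.5 CPM under the WT label and 32.8, 38.9 and 39.4 CPM under the KO label. WT-labelled replicate 1 was here the highest library, unlike in most effectors. Sp100 (chr1:85649988-85709998, plus strand) was at 200, 212 and 256 CPM against 163, 152 and 150 CPM. Neither gene had overlapping groups, and the log2 fold changes were −0.61 for Pml (SE 0.15, adjusted p = 0.023) and −0.52 for Sp100 (SE 0.14, adjusted p = 0.028). The Pml call was lost without WT-labelled replicate 3 or any 1 KO-labelled library (adjusted p 0.0519 to 0.0831), and the Sp100 call without any 1 library other than WT-labelled replicate 1 (adjusted p 0.0595 to 0.127).

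Samd9l, which encodes a restriction factor of poxviruses that also curbs growth of hematopoietic cells, rose to nearly the same level in all 3 KO-labelled libraries. Samd9l (chr6:3372257-3399572, minus strand) was at 13.9, 22.3 and 14.1 CPM under the WT label and 34.2, 33.8 and 36.5 CPM under the KO label. All KO-labelled libraries lay above all WT-labelled ones. The mean went from 16.8 ± 4.77 to 34.8 ± 1.45 CPM, 2.08-fold higher (log2 fold change 1.05, SE 0.21, adjusted p = 0.010). Samd9l was the only effector that kept its call under all 16 alternative analyses, with adjusted p up to 0.049. The other effectors of mixed function did not pass. Ifi35 was even, at 42.7 to 47.5 against 37.8 to 43.6 CPM (log2 fold change −0.11, 95% interval −0.39 to 0.17). Trim21, a cytosolic antibody receptor, was at 16.3 to 24.9 against 14.8 to 18.1 CPM (−0.31, adjusted p = 0.29). Xaf1, which promotes apoptosis, was at 11.0, 22.3 and 21.7 against 21.8, 16.1 and 15.3 CPM, so that replicate 1 and the other replicates differed in opposite directions. Rtp4, a receptor chaperone that damps interferon responses, showed the same crossing at a low level, at 0.417, 1.26 and 1.09 against 1.40, 0.866 and 0.477 CPM. Ifi44 had 1 read in all 6 libraries together.

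The receptor genes were among the better expressed members and did not pass. Ifnar1 was at 147, 213 and 228 CPM under the WT label and 289, 224 and 240 CPM under the KO label (log2 fold change 0.36, 95% interval −0.11 to 0.82, adjusted p = 0.23). Ifnar2 was at 103, 159 and 163 against 164, 135 and 134 CPM (0.03, 95% interval −0.45 to 0.50, adjusted p = 0.94). In both genes WT-labelled replicate 1 was the lowest library and KO-labelled replicate 1 the highest. Of the 25 effectors that did not pass, 13 had a 95% interval that lay within 2-fold in either direction, and for the other 12 it reached past 2-fold on at least 1 side.

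Replicate 1 and the other replicates differed in many of the effectors. WT-labelled replicate 1 was the lowest of the WT-labelled libraries in 30 of 34 tested effectors (88.2%), beside 40.8% of all tested genes. In replicate 1 the median difference between KO-labelled and WT-labelled library was 0.56 on the log2 scale, while in replicates 2 and 3 it was −0.39. Over all tested genes these medians were −0.05 and 0.01. The difference in replicate 1 and that in replicates 2 and 3 were opposite in sign for 14 effectors (41.2%), beside 33.2% of all tested genes. Oas2 showed the widest crossing, at 1.73 in replicate 1 and −1.71 in replicates 2 and 3. The library that was low in interferon effectors was also low in the markers of mature granulocytes and macrophages, 6 of 7 found in the table and S100a8 and S100a9 at most 1.08 CPM. These summed to 183 CPM in WT-labelled replicate 1, to 686 and 767 CPM in the other WT-labelled libraries and to 845 to 1625 CPM in the KO-labelled ones. Between the labels the markers did not move together: Adgre1 and Csf1r were higher in every KO-labelled library, while Itgam overlapped. Csf1r passed the test (adjusted p = 0.043), and Adgre1 (adjusted p = 0.058), Itgam and Cd68 did not. Cd68 was at 36.1, 127 and 129 CPM under the WT label and 78.2, 39.8 and 42.4 CPM under the KO label. In bulk RNA fewer cells of a type and less RNA per cell cannot be told apart, and the part of these marker differences in the effector levels was not tested.

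**Figure D3:**
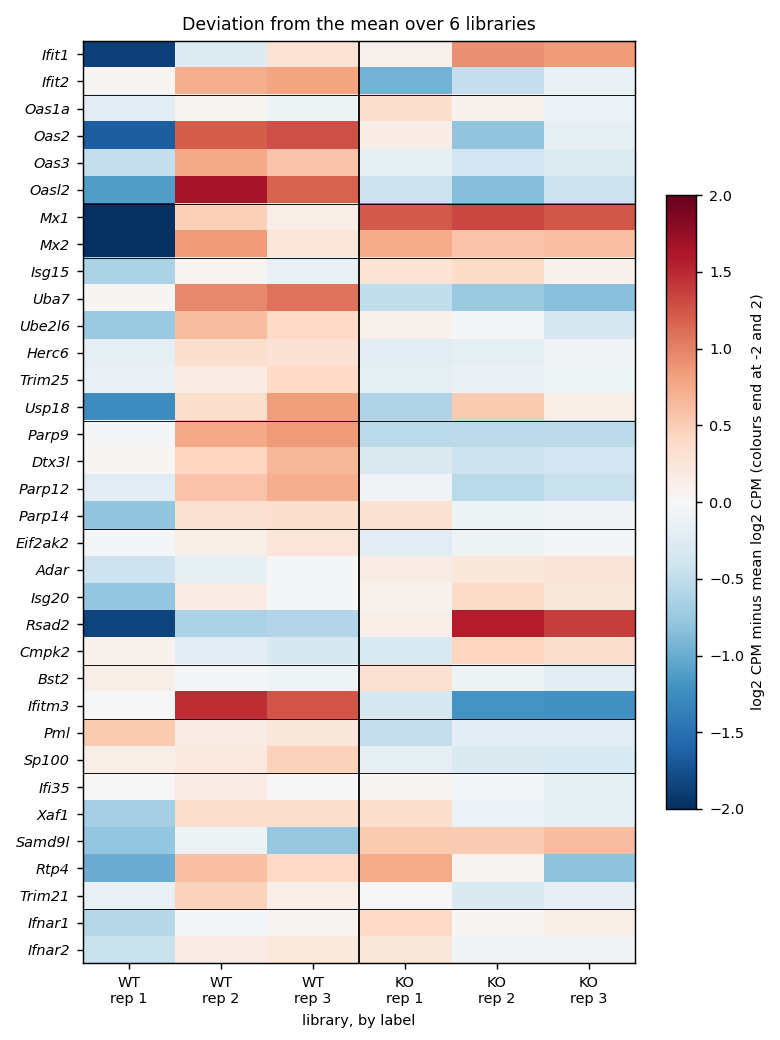
Log2 CPM of each tested effector in each library minus its mean over the 6 libraries, in order of role (colours end at −2 and 2). The column of WT-labelled replicate 1 is blue for most genes, including Mx1, Mx2, Ifit1, Oas2 and Rsad2, whereas WT-labelled replicates 2 and 3 are red for most.

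With replicates 2 and 3 alone more of the effectors passed. Of 34 tested effectors 4 were then higher (11.8%) and 19 lower (55.9%), with a median log2 fold change of −0.41, beside 25.8% higher, 27.1% lower and a median of −0.02 over all genes tested in those 4 libraries. The genes called higher were Rsad2, Samd9l, Cmpk2 and Adar. Those called lower included all 4 genes of the PARP and DTX3L group, Oas2, Oas3 and Oasl2, 4 of 6 genes of ISG15 conjugation, and Ifnar2. This fit rests in part on KO-labelled replicates 2 and 3, which were the closest pair of libraries in the series. Its p-values measure only the spread within the pair of libraries of each label. The chi-square per degree of freedom was 2.42 for the KO-labelled pair and 26.2 for the WT-labelled pair. Without WT-labelled replicate 1, with the other 5 libraries, 3 effectors were higher and 13 lower, where 22% of all genes tested were higher and 20.8% lower. When any 1 of the other libraries was left out, 1 or 2 effectors were higher and 2 or 3 lower, with 15% to 20% of all genes called.

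**Figure D4:**
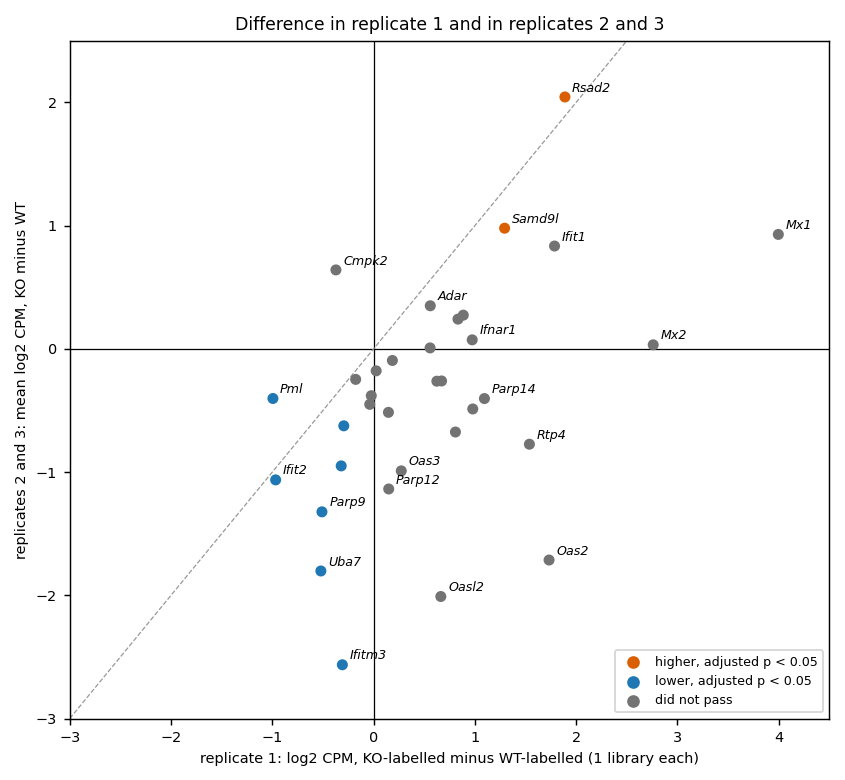
Difference in log2 CPM (2 reads added before taking logs), KO-labelled minus WT-labelled, in replicate 1 on the x axis and averaged over replicates 2 and 3 on the y axis, for the 34 tested effectors; the dashed line marks equal differences. Rsad2 and Samd9l lie at the upper right near the line, Pml and Ifit2 at the lower left, and 14 genes, such as Oas2 and Oasl2, lie in quadrants of opposite sign.

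Genes with the core letters in the promoter were found among those that rose and those that fell. Of 9 tested effectors with the core letters 1 was higher and 1 lower, with a median log2 fold change of 0.01 and a range from −1.88 (Ifitm3) to 2.07 (Rsad2). Of 18 tested effectors without them 1 was higher and 5 lower, with a median of −0.28. Over all tested genes 27.3% were called. These counts are a description and were not tested against each other.

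The other genes of the pathway were read from lists of 96 symbols, of which 95 were in the table and 71 were tested. Across the lists 10 were higher (14.1%) and 15 lower (21.1%), beside 13.7% in each direction over all tested genes. The interferons themselves were hardly read: 15 of 18 type I interferon genes had no read in any library, Ifnb1 among them, and the most abundant, Ifnz and Ifnab, had at most 2 reads in a library.

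The list of nucleic acid sensing upstream of interferon held sensors together with their adaptors, kinases and transcription factors. Of its 16 tested genes, 4 were higher and 1 lower, together 31.2% beside 27.3% of all tested genes. Irf5, a transcription factor of Toll-like receptor signalling, was at 11.9, 20.8 and 23.9 CPM under the WT label and 64.0, 45.9 and 47.3 CPM under the KO label (log2 fold change 1.48, SE 0.28, adjusted p = 0.0084). Ikbke, a kinase that activates interferon regulatory factors, was at 30, 73.5 and 73.6 against 149, 140 and 142 CPM (1.28, adjusted p = 0.026). Zbp1, a sensor of Z-form nucleic acid, was at 2.25, 9.36 and 5.11 against 22.6, 16.8 and 17.1 CPM (1.76, adjusted p = 0.032). Ticam1, the adaptor of TLR3, was also higher (0.57, adjusted p = 0.047), and Mb21d1, which encodes the DNA sensor cGAS, was lower (−0.69, adjusted p = 0.011). In all 5 genes the groups did not overlap. The calls of Irf5 and Mb21d1 held without any 1 library, while those of Ikbke, Zbp1 and Ticam1 were lost without at least 1 (adjusted p up to 0.0846, 0.107 and 0.138), and Ticam1 also under other scalings (adjusted p 0.0524 to 0.0748).

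Between receptor and ISGF3, 1 of 7 genes was higher and 1 lower, near the 27.3% called over all tested genes. Tyk2, the kinase bound to IFNAR1, was at 87.9, 120 and 127 CPM under the WT label and 262, 222 and 212 CPM under the KO label (log2 fold change 1.06, SE 0.18, adjusted p = 0.0052). Irf2, a repressor of interferon-stimulated genes, was lower, at 56.4, 69.0 and 73.0 against 48.7, 42.0 and 39.7 CPM (−0.61, SE 0.15, adjusted p = 0.022). Its call was lost without replicate 2 or 3 of either group (adjusted p 0.0692 to 0.101).

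Of 8 tested brakes on interferon signalling, 3 were higher and none lower, a count of few genes to be read beside the 13.7% of all tested genes called in each direction. Ptpn1, a phosphatase that acts on TYK2, was at 102, 135 and 138 CPM under the WT label and 341, 281 and 272 CPM under the KO label (log2 fold change 1.25, SE 0.17, adjusted p = 0.0022). Pias4, a SUMO ligase that inhibits STAT proteins, was at 31.7, 28.0 and 33.0 against 58.3, 54.0 and 52.9 CPM (0.84, SE 0.12, adjusted p = 0.0030). Ptpn6, which encodes the phosphatase SHP-1, was at 251, 348 and 372 against 586, 526 and 502 CPM (0.73, SE 0.19, adjusted p = 0.026). In each of these 3 genes all KO-labelled libraries lay above all WT-labelled ones. The calls of Ptpn1 and Pias4 held without any 1 library, and that of Ptpn6 was lost without WT-labelled replicate 2 or any 1 KO-labelled library (adjusted p 0.0666 to 0.0829).

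Other interferon-stimulated genes, outside the chosen effectors, include members of the same families. Of 40 tested, 2 were higher and 13 lower, with a median log2 fold change of −0.36, beside 13.7% in each direction and a median of −0.04 over all tested genes. Epsti1, first described as an epithelial gene induced by stroma, was at 35.2, 33.2 and 39.7 CPM under the WT label and 6.94, 5.02 and 5.31 CPM under the KO label (log2 fold change −2.64, SE 0.18, adjusted p = 0.00014). Ifi203, a PYHIN family protein, was at 15.9, 57.9 and 60.4 against 1.76, 2.03 and 1.01 CPM (−4.78, SE 0.59, adjusted p = 0.0015). These calls held under all 16 alternative analyses. Of the tested paralogs of Ifitm3, Ifitm1 and Ifitm2 fell too. Ifitm1 was at 358, 1401 and 1022 against 23.7, 47.6 and 45.7 CPM (−4.57, SE 0.57, adjusted p = 0.0016). Ifitm2 was at 195, 290 and 247 against 103, 108 and 111 CPM (−1.18, SE 0.17, adjusted p = 0.0026). Both calls also held without any 1 library. Ifitm6 overlapped, at 0.709, 19.5 and 11.0 against 1.13, 1.39 and 0.955 CPM, and did not pass (−3.15, adjusted p = 0.055). Ifitm3 and Ifitm1 share 31-base stretches, so their falls may not be fully separate measurements. Zc3hav1, which encodes the zinc-finger antiviral protein ZAP, was higher by 0.39 and Mov10, an RNA helicase, by 0.56 on the log2 scale (adjusted p = 0.036 and 0.049). These 2 calls were lost without any 1 library other than WT-labelled replicate 1 (adjusted p up to 0.164 for Zc3hav1 and 0.132 for Mov10), and with scaling to library totals (0.102 and 0.0629).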

How the data were processed

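RNA of 6 libraries, 3 for each A20 label, was prepared with a TruSeq Stranded mRNA kit, per the labels' protocols. The deposited values are raw read counts per gene. The submitters' processing notes name FastQC 0.11.7, HISAT2 2.0.5, featureCounts 1.5.2 and the build mm10. Not given in the sources used here are the annotation, the strand setting and how reads with several matches were treated, each of which can move counts between overlapping genes and paralogs.

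The counts were tested with edgeR 4.0.16 in R 4.3.3 (TMM scaling, default low-count filter, robust quasi-likelihood test, Benjamini-Hochberg adjustment over 12126 genes, threshold 0.05), checked on simulated data first. Differences are KO-labelled minus WT-labelled, with no covariate. Gene positions, exon lengths and shared 31-base stretches came from GENCODE annotation of GRCm38 (Python 3.11.15), promoters from RefSeq. The 16 alternatives covered scaling, filters, DESeq2 1.42.0, limma-voom (limma 3.58.1), a block and left-out or summed libraries. The effectors, lists and tests were chosen with earlier results of these data known. All effectors are named. Of each pathway list up to 4 called genes per direction are named in order of p, or else the 2 most abundant. Ifnb1, Oas1b, Oas1c, Oas1g and Ifitm6 are named besides.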

Additional observations from a re-analysis of the deposited data

How the results depend on the processing

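Of the fold changes of the 34 tested effectors recomputed under the 16 alternatives, 441 kept direction and call, 41 (8 genes) lost a call, 22 (14 genes) gained one and 34 (7 genes, none called in the analysis reported) changed sign. Parp14 and Ifnar2 did both, in replicates 2 and 3 alone.

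The numbers of effectors, pathway genes and all genes called higher and lower were 2 and 7, 10 and 15, and 1660 and 1656 in the analysis reported. Leaving out each library in turn gave 1 to 3 and 2 to 13 effectors, 4 to 11 and 10 to 27 pathway genes, and 939 to 2712 and 916 to 2568 of all genes, highest without WT-labelled replicate 1. Replicates 2 and 3 alone gave 4 and 19 effectors, 36 lower pathway genes, and 3149 and 3309 of all genes. With replicates 2 and 3 of each group summed into 1 sample, which leaves 2 samples a group, 1 effector (Samd9l) was higher and 0 lower, with 1 and 4 pathway genes and 543 and 518 of all genes; DESeq2 with all libraries called 2 and 8 effectors.

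A block for replicate number gave 3 lower effectors (Uba7, Parp9 and Ifit2), 4 higher pathway genes, and 989 and 1034 of all genes. Over all tested genes the numbers showed no pairing: deviations from group means of same-numbered libraries correlated at −0.006, −0.055 and 0.052. This does not exclude that single genes follow the number, as Gapdh did in replicate 1 of both groups. The labels do not say whether same-numbered libraries belong together. Under the block Usp18 was at 0.029, Bst2 at −0.00076 and Rtp4 at −0.0072 on the log2 scale, with changed sign.

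The other changes of sign were in genes not called with all libraries. Upper-quartile scaling gave −0.0021 for Parp14, −0.0016 for Bst2 and −0.016 for Rtp4. Library totals gave −0.019 for Parp14, −0.0071 for Bst2, −0.046 for Rtp4 and −0.0053 for Ifnar2. Limma-voom gave 0.11 for Usp18 and 0.044 for Xaf1. Replicates 2 and 3 alone gave −0.0035 for Oas1a, −0.11 for Bst2 and −0.78 for Rtp4, and, called as lower, −0.42 for Parp14 and −0.28 for Ifnar2 (adjusted p = 0.0044 and 0.012), and summed 0.022 for Usp18 and 0.21 for Xaf1. With 1 library left out the log2 fold changes ran from −0.52 to 0.34 for Usp18, −0.26 to 0.20 for Parp14, −0.15 to 0.12 for Bst2, −0.31 to 0.10 for Xaf1, −0.42 to 0.30 for Rtp4 and −0.15 to 0.14 for Ifnar2. The cause was not tested.

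Depth limits Ifit3, Ifit3b, Oasl1 and Ifi44, which had too few reads to be tested.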
